A study of Mus musculus with 12 samples.

Results

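The miR-106b/25 cluster is a group of 3 microRNA (miRNA) hairpins, miR-106b, miR-93 and miR-25, that lie in an intron of Mcm7, the gene of a subunit of the DNA replication helicase. Its members were taken as every mouse miRNA name on the array that starts with mmu-miR-106b-, mmu-miR-93- or mmu-miR-25-, which gave 5 of the 696 names, namely miR-106b-5p, miR-106b-3p, miR-93-5p, miR-93-3p and miR-25-3p. They were measured in retina and in sclera from C57BL/6J mice made myopic by visual form deprivation, in which a diffuser blurs what an eye sees. The right eye wore the diffuser for 10 days from postnatal day 24 and is the myopic eye, the uncovered left eye of the same animals is the control, and tissue was taken at postnatal day 34. The groups are control and myopic retina and control and myopic sclera, 4 in all with 3 arrays each, and each array carried RNA of whole tissue pooled from 3 eyes, so that the 12 arrays set the precision of all values.

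Each hairpin can give 2 mature miRNAs, the guide arm, which is loaded into an Argonaute protein, and the passenger arm, most of which is degraded. A loaded miRNA recognizes messenger RNAs mainly through its seed, the bases near its 5′ end, and lowers their stability and translation. The cluster is a paralogue of the miR-17/92 cluster and is best known for targets that hold back the cell cycle or promote cell death, among them Cdkn1a for miR-106b and miR-93 and Bcl2l11 for miR-25.

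The mature sequences are shown because the 3 guide arms fall into 2 seed families, so that relatives with the same seed can be set beside each of them. They were read from RefSeq (build GRCm38.p6), where 5 of the 5 cluster names and 528 of the 696 array names were matched. They run 5′ to 3′, and capitals mark the seed, bases 2 to 8.

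mmu-miR-106b-5p: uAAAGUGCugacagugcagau
mmu-miR-93-5p: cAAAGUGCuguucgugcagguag
mmu-miR-25-3p: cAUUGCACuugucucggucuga
mmu-miR-106b-3p: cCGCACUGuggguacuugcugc
mmu-miR-93-3p: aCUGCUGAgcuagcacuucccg

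The guide arms miR-106b-5p (chr5:138165787-138165807), miR-93-5p (chr5:138165574-138165596) and miR-25-3p (chr5:138165332-138165353) are all on the minus strand. The 3 hairpins span 498 bases, with gaps of 126 and 118 bases between neighbours, and all of them lie within the bounds of Mcm7. The seed of miR-106b-5p and miR-93-5p is AAAGUGC, which 7 of the 1679 mature mouse names in the table carry, and that of miR-25-3p is AUUGCAC, which 6 carry. From the 5′ end, miR-106b-5p has the same base as miR-93-5p at 16 of 21 positions and the same base as miR-25-3p at 5 of 21. The relatives that the results return to below are these.

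mmu-miR-20a-5p: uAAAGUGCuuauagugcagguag
mmu-miR-20b-5p: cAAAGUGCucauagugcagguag
mmu-miR-92a-3p: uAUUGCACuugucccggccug

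These 3 come from the paralogous clusters miR-17/92 on chromosome 14 and miR-106a to miR-363 on chromosome X, and miR-92a-3p is encoded in both. The base is the same in miR-93-5p and miR-20b-5p at 20 of 23 positions, and in miR-25-3p and miR-92a-3p at 18 of 21.

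The array reads the 3′ end of a miRNA with DNA probes of different lengths, so members of 1 seed family are told apart by the bases outside the seed. The longer of the 2 probes of each guide arm, each on 10 spots, are shown because the levels below rest mostly on them.

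mmu-miR-106b-5p probe: atctgcactgtcagcac
mmu-miR-93-5p probe: ctacctgcacgaacag
mmu-miR-25-3p probe: tcagaccgagacaagtgc

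Every probe of the 5 cluster names is fully complementary to its own miRNA and to no other mature miRNA of the table. How strongly a related miRNA with mismatches binds to them was not measured.

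The 3 guide arms were detected on all 12 arrays, as were 246 of the 696 names. A miRNA counts as detected where the signal of at least 1 of its probes is above 3 times its error. The total gene signal is a background-subtracted fluorescence, which for each guide arm is the sum over its probes. Scanner error of the guide arms was 7.94% to 10% of the signal. On the retina arrays 353 to 401 names were detected and on the sclera arrays 274 to 317, with the fewest on control sclera 3.

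The total gene signal of miR-106b-5p was 570.5, 637.8 and 777.0 in control retina, 679.8, 898.7 and 581.7 in myopic retina, 244.1, 266.9 and 54.3 in control sclera and 162.1, 168.5 and 149.7 in myopic sclera. Each of the 6 retina arrays was above each of the 6 sclera arrays, and control sclera 3 stood far below the other scleral arrays. The signals of miR-93-5p were 161.3, 179.4 and 228.3 in control retina, 191.8, 255.4 and 161.8 in myopic retina, 118.4, 124.7 and 50.9 in control sclera and 77.4, 78.5 and 71.3 in myopic sclera. The retina was again above the sclera on every array, but the gap between the tissues was smaller. The signals of miR-25-3p were 708.2, 735.2 and 1002.8 in control retina, 812.4, 1038.3 and 665.5 in myopic retina, 281.2, 318.4 and 139.4 in control sclera and 219.2, 191.9 and 179.5 in myopic sclera. For all 3 arms the control and myopic arrays of the retina overlapped, and so did those of the sclera.

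**Figure D1:**
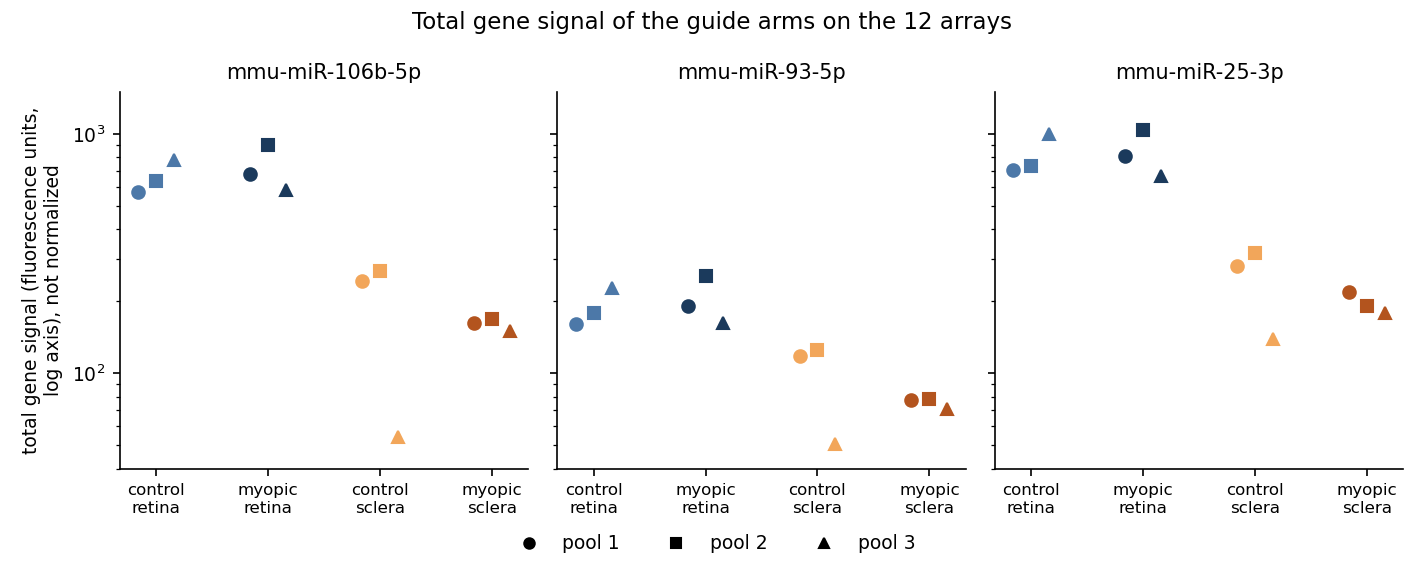
Total gene signal (fluorescence units, log axis, not normalized) of the 3 guide arms on each of the 12 arrays, by group; each symbol is 1 pool. The 6 retina arrays lie above the 6 sclera arrays for each arm; after quantile normalization this turns for miR-93-5p, to -0.44 and -0.64 in control and deprived eyes, and with the 75th percentile over all names for miR-106b-5p and miR-25-3p in the deprived eyes, to -0.02 and -0.09, and control sclera 3 is lowest for each arm, at 54.3 for miR-106b-5p.

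Part of this gap is shared by most miRNAs, because the sclera arrays were dimmer as a whole. Over the 246 miRNAs detected on all arrays, the 75th percentile of the signal was 1063, 1088 and 1122 in control retina, 1119, 1414 and 1024 in myopic retina, 674.3, 803.1 and 276.4 in control sclera and 601, 520.3 and 436.3 in myopic sclera. Levels were therefore compared after quantile normalization, which gives every array the same distribution, and also after scaling each array to this 75th percentile. The median log2 difference of these 246 miRNAs between control retina and control sclera was 1.17 without normalization, -0.24 after quantile normalization, 0.13 after 75th percentile scaling, -0.41 with the 75th percentile over all names and 1.43 when the tissues were quantile normalized separately.

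After quantile normalization, the log2 level of miR-106b-5p was highest in control retina (8.97 ± 0.21, SD, n = 3), then in myopic retina (8.88 ± 0.05), myopic sclera (8.34 ± 0.13) and control sclera (8.18 ± 0.39). The step between myopic retina and myopic sclera was the only one of the 3 between neighbours with an adjusted p under 0.05. That of miR-25-3p was 9.25 ± 0.20 in control retina, 9.14 ± 0.03 in myopic retina, 8.65 ± 0.05 in control sclera and 8.56 ± 0.05 in myopic sclera. Here too the levels fell into a retinal and a scleral pair, and neither pair passed the test within itself. The level of miR-93-5p was instead higher in the sclera, with 7.60 ± 0.04 in control sclera, 7.46 ± 0.10 in myopic sclera, 7.16 ± 0.31 in control retina and 6.82 ± 0.11 in myopic retina. Myopic sclera and control retina, neighbours in this order, overlapped in range and were not tested against each other, and after 75th percentile scaling the order was lost, with 7.05, 7.03, 7.04 and 6.82 in control retina, myopic retina, control sclera and myopic sclera.

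**Figure D2:**
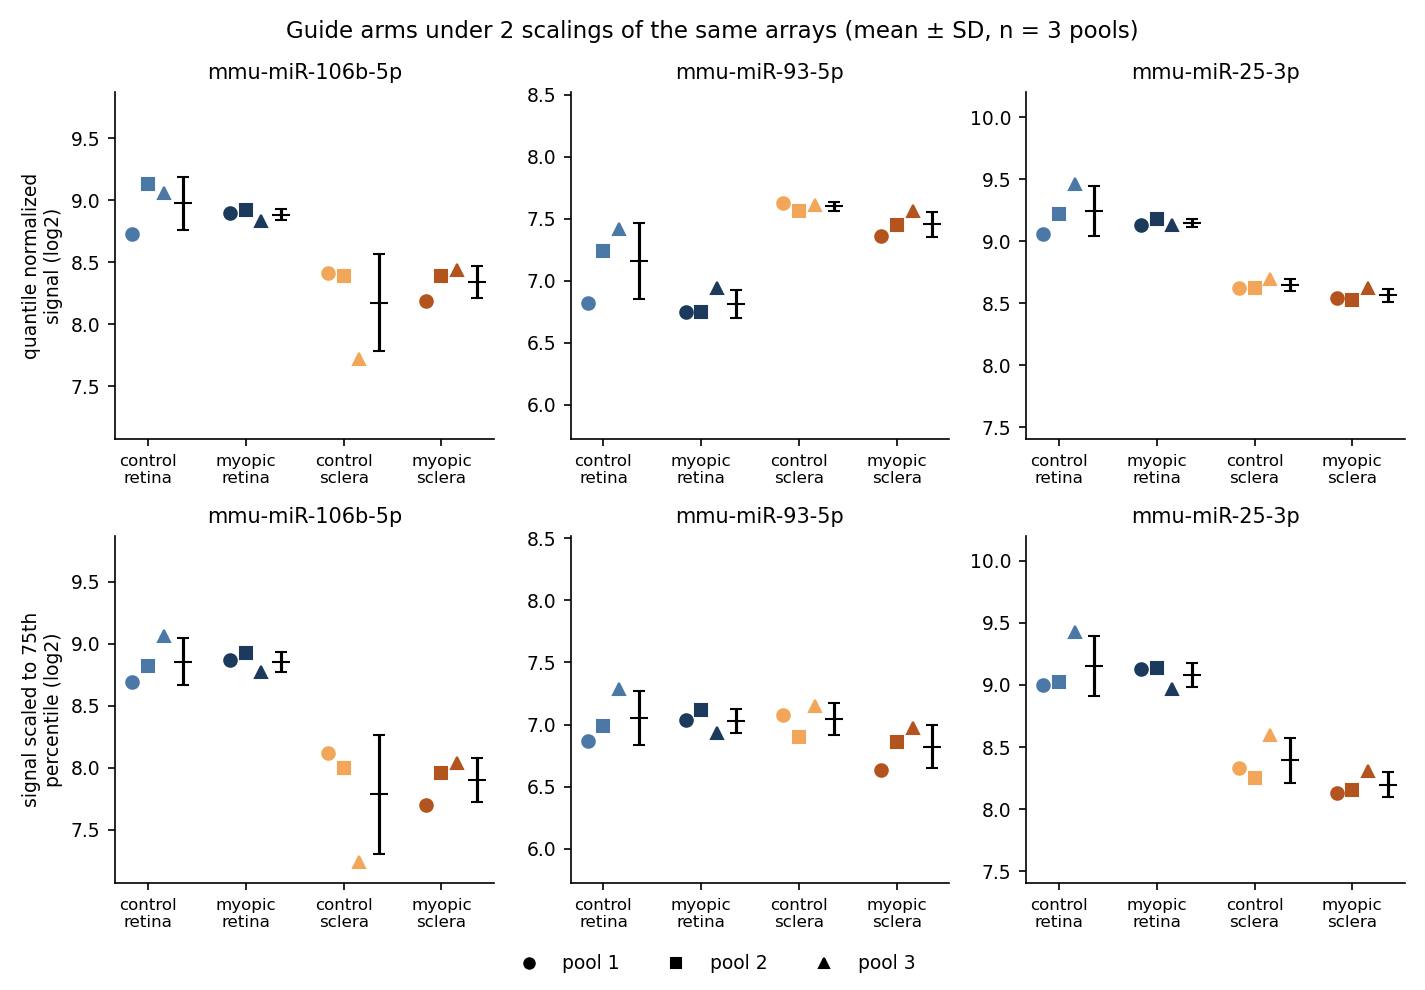
Log2 levels of the guide arms by group after quantile normalization (upper row) and after scaling to the 75th percentile of the miRNAs detected on all arrays (lower row); symbols are pools, bars are mean ± SD of 3 pools. The retinal levels of miR-106b-5p and miR-25-3p lie above the scleral ones under both scalings, although in the deprived eyes this turns to -0.02 and -0.09 when the 75th percentile is taken over all names, while those of miR-93-5p lie below within control and within deprived eyes after quantile normalization and overlap after the other.

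The passenger arms were at or near the limit of detection. In control retina 2 and 3 and myopic retina 1 and 2, miR-106b-3p was detected, with signals of 3.9, 3.8, 3.4 and 4.8, and it was undetected on the 8 other arrays. These totals are those of the longest of its 4 probes, which is shown for that reason.

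mmu-miR-106b-3p probe: gcagcaagtacccac

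This 15-base probe read 3.0, 3.9 and 3.8 in control retina, 3.4, 4.8 and 2.3 in myopic retina, 0.9, 0.3 and -0.5 in control sclera and 0.4, 0.0 and 0.4 in myopic sclera. The 6 retina arrays were above the 6 sclera arrays at this probe, before any correction for the dimmer sclera arrays. No array detected miR-93-3p, and the sixth possible arm, miR-25-5p, has no name on the array.

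The first comparison asks whether 10 days of form deprivation changed the cluster in the retina. None of the 4 names tested (miR-93-3p was not) passed the test, which called a miRNA where its adjusted p in limma was under 0.05 and it differed 2-fold or more. The log2 fold change of miR-106b-5p was -0.09 ± 0.20 (SE, n = 3 and 3; 95% interval -0.54 to 0.36, limma adjusted p = 0.88), lower in the myopic retina in 2 of 3 pairs of arrays with the same pool number. That of miR-25-3p was -0.10 ± 0.12 (interval -0.37 to 0.17, limma adjusted p = 0.66, lower in 2 of 3 pairs). The intervals of both guide arms leave out a doubling or halving after this normalization, and both values depend on it, with 0.11 and 0.03 without normalization, 0.00 and -0.07 after 75th percentile scaling and -0.35 and -0.43 with the 75th percentile over all names. Without normalization the interval of miR-106b-5p was -1.07 to 1.29, which takes in both a halving and a doubling. That of miR-25-3p was -0.73 to 0.80, which does not. With array weights the adjusted p of miR-106b-5p was 0.025 at -0.22 (0.025 to 1 over all alternatives), under the 2-fold limit of a call.

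After quantile normalization, miR-93-5p was lower in the myopic retina in 3 of 3 pairs, with pair differences of -0.06, -0.48 and -0.48. Its log2 fold change was -0.34 ± 0.16 (SE; interval -0.70 to 0.01, limma adjusted p = 0.18), and it was -0.02 after 75th percentile scaling, -0.37 with the 75th percentile over all names and 0.09 without normalization. Its adjusted p passed 0.05 without control retina 1 (-0.51, adjusted p = 0.0086) and with array weights (-0.47, adjusted p = 0.00012), the range over all alternatives being 0.00012 to 1, and the change stayed under 2-fold in both. The median of the 246 miRNAs moved by -0.21 in this comparison after quantile normalization and by -0.02 after 75th percentile scaling, so that miR-93-5p stood at -0.13 and 0.01 relative to it, and the 3 guide arms lay between -0.13 and 0.12 relative to it after quantile normalization. The passenger arm miR-106b-3p, detected on 2 of 3 arrays of either group, had a value of -1.34 ± 0.75 (SE, limma adjusted p = 0.27) that depends on its undetected arrays, with 0.05 without normalization, and it was called without control retina 1 (-2.25, adjusted p = 0.0013) and with array weights (-1.84, adjusted p = 4.7e-05, the lowest over all alternatives, with 1 the highest). Of all 443 miRNAs tested, 0.226% (1 miRNA, with 130 at an unadjusted p under 0.05) were called, and this count became 122 without control retina 1 and 13 without myopic retina 3, with no guide arm called in either.

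The second comparison asks the same of the sclera, and no member of the cluster was called there. The log2 fold change of miR-106b-5p was 0.16 ± 0.20 (SE, interval -0.29 to 0.61, limma adjusted p = 1), with pair differences of -0.23, 0.00 and 0.72. Its positive sign rested on control sclera 3, without which the value was -0.06. Lower values in the myopic sclera were seen in 3 of 3 pairs for miR-93-5p (-0.15 ± 0.16, interval -0.50 to 0.21, limma adjusted p = 1) and for miR-25-3p (-0.09 ± 0.12, interval -0.36 to 0.18, limma adjusted p = 1). Both arms kept this sign under each scaling, but the differences after quantile normalization are smaller than their standard errors. With limma 0% of the 443 miRNAs (0, with 13 at an unadjusted p under 0.05, and 0 by a linear model without moderation) were called in the sclera, and 1 without any 1 of control sclera 2, control sclera 3 and myopic sclera 1.

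Whether retina and sclera responded differently to deprivation was tested as the difference between the 2 responses, which uses all 12 arrays. No member was called. The difference was -0.25 ± 0.28 for miR-106b-5p, -0.20 ± 0.22 for miR-93-5p and -0.02 ± 0.17 for miR-25-3p (log2, SE, limma adjusted p = 0.58, 0.58 and 0.95), and without normalization all 3 were positive (0.04, 0.35 and 0.28). With the 75th percentile over all names they were -0.55, -0.23 and -0.31, and with array weights miR-93-5p was at -0.34 (adjusted p = 0.012, with 0.012 to 1 over all alternatives), not called. The share called among all 443 miRNAs was 0.226% (1 miRNA), or 0 with the pool number as a block, and the count was 112 without control retina 1, 9 without myopic retina 3, 2 without control sclera 2, control sclera 3 or myopic sclera 1, and 0 without any 1 of control retina 2, control sclera 1, myopic retina 1, myopic retina 2, myopic sclera 2 or myopic sclera 3.

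**Figure D3:**
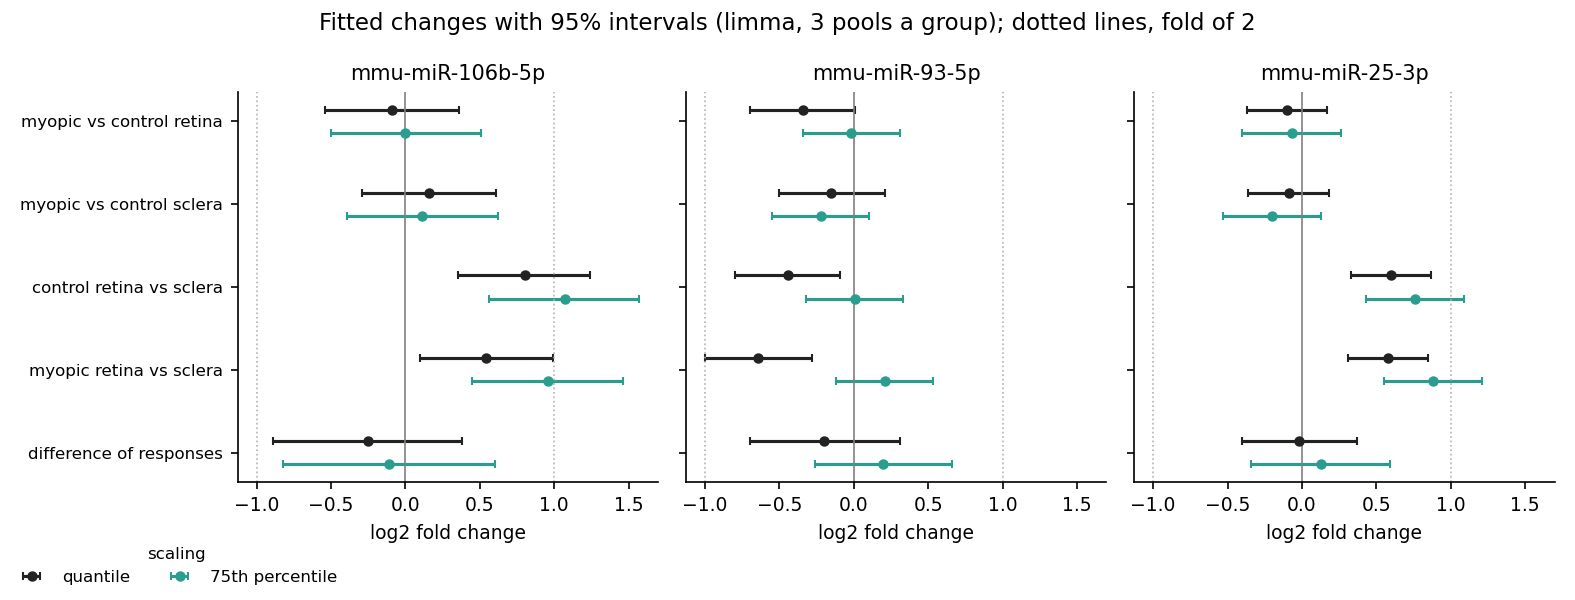
Log2 fold changes of the guide arms (points) with 95% intervals (bars) in the 5 comparisons, after quantile normalization (black) and 75th percentile scaling (green), limma, 3 pools a group; dotted lines mark a fold of 2. All intervals of the responses to deprivation include 0, while retina over sclera is positive for miR-106b-5p and miR-25-3p under both scalings drawn (in the deprived eyes -0.02 and -0.09 with the 75th percentile over all names) and, for miR-93-5p, turns from -0.44 to 0.01 in the control eyes and from -0.64 to 0.21 in the deprived eyes.

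The comparison of the tissues in the control eyes asks where the cluster is more abundant. Both miR-106b-5p and miR-25-3p were higher in the retina in 3 of 3 pairs, by 1.74-fold and 1.51-fold, and miR-93-5p was not. The log2 difference of miR-106b-5p was 0.80 ± 0.20 (SE, n = 3 and 3, limma adjusted p = 0.0065) and that of miR-25-3p was 0.60 ± 0.12 (limma adjusted p = 0.0018, with 3.9e-07 to 0.37 over all alternatives). These 2 arms kept this direction under each scaling, with 1.07 and 0.76 after 75th percentile scaling, 0.53 and 0.22 with the 75th percentile over all names, where the adjusted p of 0.1 and 0.37 did not pass, and 2.11 and 1.80 without normalization. For miR-106b-5p the fitted fold after 75th percentile scaling was 2.1 (limma adjusted p = 0.0021, with 7.1e-06 to 0.1 over all alternatives). Its 95% interval, 0.56 to 1.57 in log2, reaches below a fold of 2. Without control sclera 3 the quantile value was 0.56. After 75th percentile scaling this array was also the lowest of its group, at 7.24 against 8.12 and 8.00. Relative to the median of the 246 miRNAs the differences were 1.04 and 0.84 after quantile normalization and 0.94 and 0.62 after 75th percentile scaling.

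Retinal miR-93-5p was lower than scleral in 3 of 3 pairs after quantile normalization, with a log2 difference of -0.44 ± 0.16 (SE, limma adjusted p = 0.034, with 3.6e-05 to 1 over all alternatives). The direction was set by the scaling, since the difference was 0.01 after 75th percentile scaling, -0.53 with the 75th percentile over all names (adjusted p = 0.041) and 1.04 without normalization. Relative to the median of the 246 miRNAs detected on all arrays it was -0.20 after quantile normalization and -0.13 after 75th percentile scaling.

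After quantile normalization the 2 groups did not overlap for any guide arm. Among all 443 miRNAs, 33% were higher in the control retina without overlap and 26% lower, and at an adjusted p under 0.05 with any fold 34.8% were higher and 26.4% lower, so that such differences between these tissues are common. With a fold of at least 2 the share was 50.6% (224 miRNAs, 122 higher and 102 lower in the retina), against 160 higher and 82 lower after 75th percentile scaling, 224 and 44 without normalization, 243 and 43 when the tissues were normalized separately, 171 and 86 with processed spot signals, and 45 and 83 among the miRNAs detected on all arrays. The 1 name of the cluster that was called was the passenger arm miR-106b-3p, detected on 2 of 3 control retina arrays and on no sclera array, so that it could pass only as higher in the retina. Its log2 difference of 2.11 ± 0.75 (limma adjusted p = 0.034) depends on the floor given to undetected values, so no fold is read from it, and the call was lost in 15 of 28 alternatives, among them the pool number as a block (2.11, adjusted p = 0.05, with 7e-07 to 0.18 over all alternatives). It was also lost without control retina 2 (1.70), control retina 3 (1.52) or any 1 of the 3 control sclera arrays (2.19 each).

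The same comparison in the deprived eyes uses the other 6 arrays of the series. By the labels these share animals with the control arrays, and they share slides and the fit. The comparison is therefore no independent repeat. The order was the same, with miR-106b-5p and miR-25-3p higher in the retina in 3 of 3 pairs, by 1.46-fold and 1.50-fold, and miR-93-5p lower in 3 of 3 pairs. The log2 difference of miR-106b-5p was 0.54 ± 0.20 (SE, limma adjusted p = 0.033), that of miR-25-3p 0.58 ± 0.12 (limma adjusted p = 0.0018) and that of miR-93-5p -0.64 ± 0.16 (limma adjusted p = 0.0049). After 75th percentile scaling they were 0.96, 0.88 and 0.21, with the 75th percentile over all names -0.02, -0.09 and -0.77, and without normalization 2.15, 2.07 and 1.40, so each sign turned under at least 1 scaling. Over all alternatives the adjusted p ranged from 5.8e-05 to 0.96, 3.9e-07 to 0.71 and 4.5e-06 to 0.21, and that of miR-106b-5p was above 0.05 without any 1 of the 6 arrays compared. The median of the 246 miRNAs was at -0.32, 0.39, -0.59 and 1.58 under the 4 scalings in the order quantile, 75th percentile, 75th percentile over all names and none. Relative to it, the differences of miR-106b-5p, miR-25-3p and miR-93-5p were 0.87, 0.90 and -0.32 after quantile normalization. They were 0.57, 0.49 and -0.18 under both 75th percentile scalings. These scalings move all miRNAs of an array alike, so their values relative to the median are the same by construction and are no sign of stability.

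In the deprived eyes no name of the cluster was called, while 58.9% of all 443 miRNAs were (261, 144 higher and 117 lower in the retina, against 196 and 82 after 75th percentile scaling, 266 and 42 without normalization, 254 and 51 when the tissues were normalized separately, 209 and 92 with processed spot signals, and 44 and 95 among the miRNAs detected on all arrays). The passenger arm miR-106b-3p was at 0.77 ± 0.75 (SE, limma adjusted p = 0.37), a value that depends on the floor, and it was called in 1 of 28 alternatives. The groups again did not overlap for any guide arm, as for 43.6% of all miRNAs higher and 35% lower in the myopic retina, and with any fold 38.6% were higher and 30.7% lower at an adjusted p under 0.05. In whole tissue, fewer cells of a type and less RNA per cell cannot be told apart. Each group also held the same position on every slide, and the 2 cannot be told apart.

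The ratio of 2 guide arms on the same array needs no scaling between arrays, and it set miR-93-5p apart from its neighbours. This measure was chosen after the values had been seen, so its p-values come from the data that prompted it. The log2 ratio of miR-106b-5p to miR-93-5p was 1.77 to 1.85 on the 6 retina arrays, with a mean of 1.82 ± 0.03 (SD). In the sclera it was 1.04, 1.1 and 0.09 in control arrays and 1.07, 1.1 and 1.07 in myopic arrays, so 5 of the 6 lay close together, control sclera 3 lay far below, and none reached the retina. The tissues differed by 0.91 (exact permutation test, two-sided, n = 6 and 6, p = 0.0022, the smallest it can give; adjusted over the 3 ratios 0.0032), and by 0.74 without control sclera 3. This test treats the 12 arrays as independent, although by the labels arrays with the same pool number share animals, and they share a slide. With retina and sclera paired by pool number and treatment the exact permutation p was 0.031 for n = 6 pairs, the smallest it can give, and the 6 pairs still come from 3 pool numbers.

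The ratio of miR-25-3p to miR-93-5p also differed between the tissues, with or without that array (0.73 without it). It was 2.02 to 2.14 in the retina (mean 2.08 ± 0.05, SD, n = 6) and 1.25 to 1.50 in the sclera (1.36 ± 0.10, n = 6), a difference of 0.71 (exact permutation p = 0.0022, adjusted 0.0032, and 0.031 with the same pairs). Between miR-106b-5p and miR-25-3p the tissues overlapped, with a difference of 0.19 (exact permutation p = 0.42, n = 6 and 6), or 0.01 without control sclera 3, whose ratio was -1.36 against -0.44 to -0.19 in the other scleral arrays. So the signal of miR-106b-5p and that of miR-25-3p each differed more between the tissues than the signal of miR-93-5p did, although the 3 are neighbours in 1 host gene, while a ratio does not tell which of its members differed.

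Within a tissue the ratios did not separate myopic from control arrays. The ratio of miR-106b-5p to miR-93-5p was 1.83 ± 0.02 in myopic retina and 1.81 ± 0.03 in control retina (SD, n = 3 and 3, exact permutation p = 0.5, where the smallest possible is 0.10). In the retina the differences of the 2 other ratios were -0.05 for miR-25-3p to miR-93-5p and 0.08 for miR-106b-5p to miR-25-3p. In the sclera the 3 differences were 0.34, 0.02 and 0.31, the first and last with control sclera 3 among the controls.

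**Figure D4:**
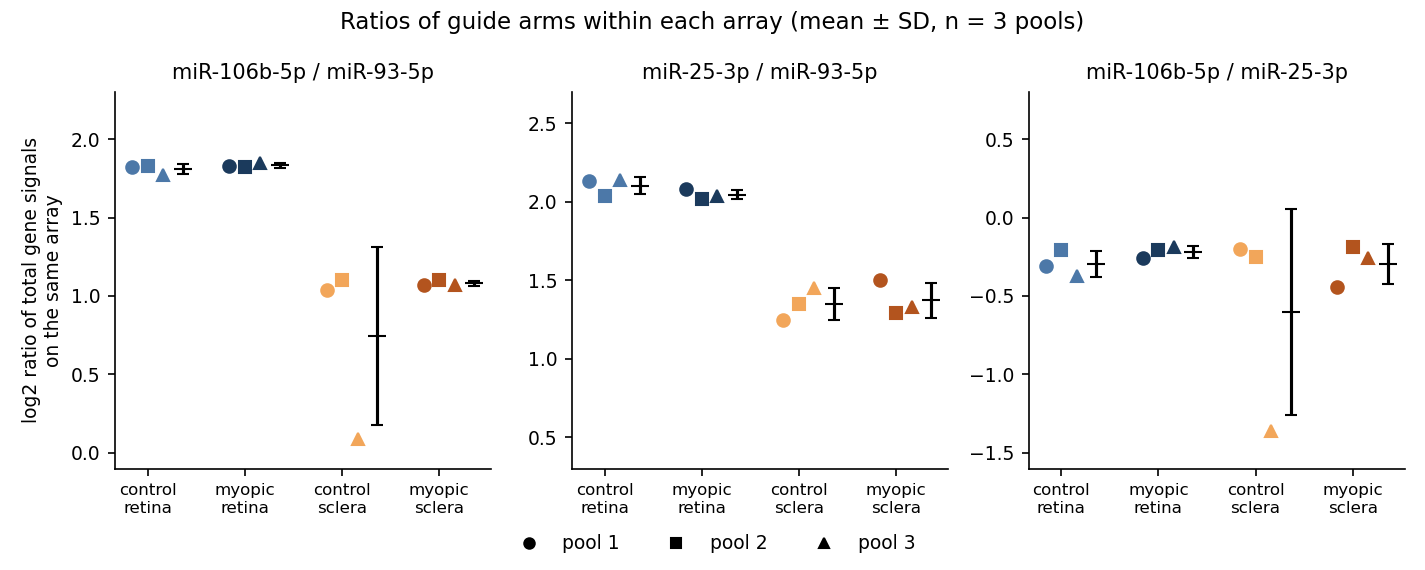
Log2 ratio of the total gene signals of 2 guide arms on the same array, by group; symbols are pools, bars are mean ± SD of 3 pools. The 2 ratios over miR-93-5p are higher on every retina array than on every sclera array, by 0.91 and 0.71 on average, and the ratio of miR-106b-5p to miR-25-3p overlaps, with control sclera 3 at -1.36.

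For miR-106b-5p and miR-25-3p the difference between the tissues was also seen with each probe alone. After 75th percentile scaling, control retina over control sclera was 1.03 and 1.08 for the shorter and the longer probe of miR-106b-5p, 0.75 and 0.76 for those of miR-25-3p and 0.08 and 0.00 for those of miR-93-5p. In the deprived eyes it was 0.87 and 0.98, 0.88 and 0.88, and 0.53 and 0.16, so that the 2 probes of miR-93-5p differed there. The 2 probes of an arm share most of their bases and are not independent.

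Of the relatives with the seed of miR-106b-5p and miR-93-5p, miR-20a-5p and miR-20b-5p were tested. The signals of miR-20b-5p, from the paralogous cluster on chromosome X, were 90.2, 117.1 and 176.5 in control retina, 125.2, 173.5 and 89.8 in myopic retina, 108.0, 119.6 and 40.1 in control sclera and 66.1, 70.8 and 65.8 in myopic sclera. Control retina and control sclera overlapped before normalization, and the myopic groups did not. After quantile normalization its log2 difference was -0.95 ± 0.26 in control eyes (limma adjusted p = 0.01) and -1.25 ± 0.26 in deprived eyes, where it was called (limma adjusted p = 0.0017), and after 75th percentile scaling it was -0.42 and -0.30, with neither called. The differences of miR-20a-5p were -0.35 and -0.69 (limma adjusted p = 0.3 and 0.054) and those after 75th percentile scaling -0.08 and -0.17. The fitted values of both relatives were negative after these 2 scalings and that of miR-106b-5p was positive. Of the 2 relatives only miR-20b-5p passed an adjusted p of 0.05, after quantile normalization alone. The difference of the relatives from miR-106b-5p was not tested, and without normalization 2 of 2 relatives were higher in the retina. No array detected the name miR-17-5p, and miR-106a-5p has no name of its own on the array.

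In the family of miR-25-3p the closest measured relative was miR-92a-3p, whose sequence is shown above. It gave 1285.2, 1357.7 and 1747.7 in control retina, 1564.2, 1953.5 and 1148.0 in myopic retina, 447.7, 461.8 and 210.8 in control sclera and 280.4, 285.9 and 262.8 in myopic sclera. Retina and sclera did not overlap, as for miR-25-3p. Its log2 difference was 0.94 ± 0.14 in control eyes (limma adjusted p = 2e-04) and 1.20 ± 0.14 in deprived eyes, where it was called (limma adjusted p = 3.2e-05), and 1.00 and 1.27 after 75th percentile scaling. Detection of miR-32-5p was limited to 2 control retina and 2 myopic retina arrays, miR-92b-3p was detected on 11 arrays at signals of at most 20.1, and miR-363-3p and miR-367-3p were detected on no array.

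**Figure D5:**
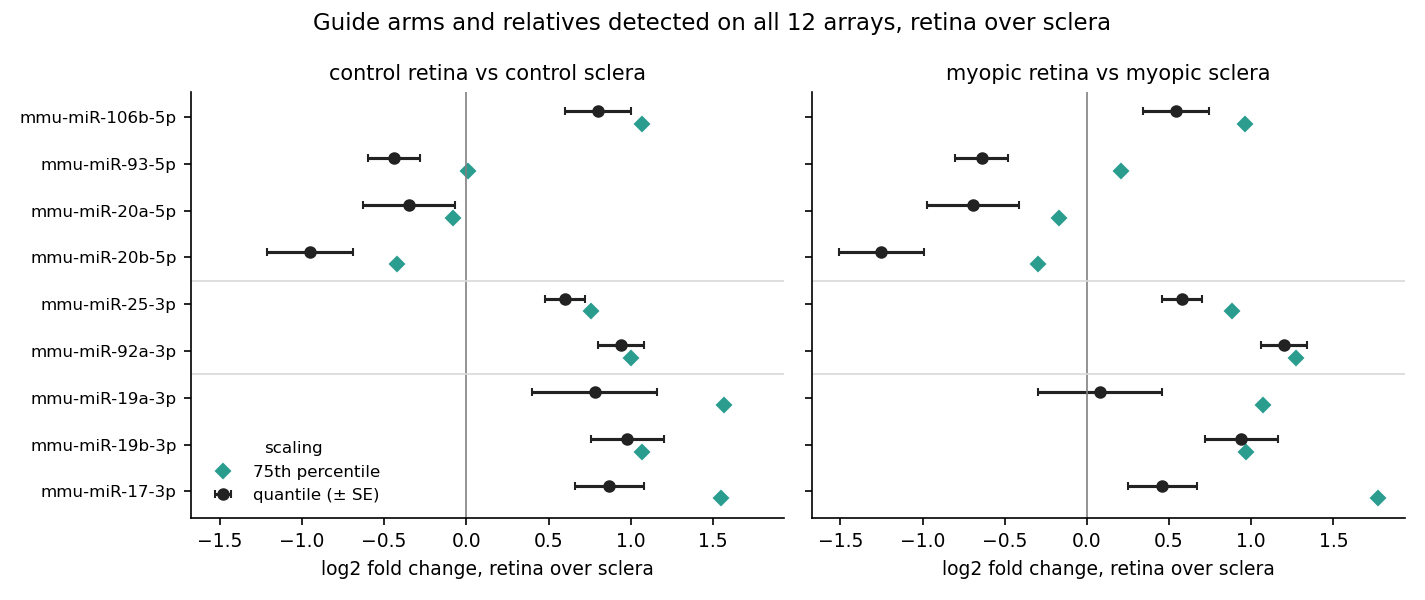
Log2 difference of retina over sclera for the guide arms and the relatives detected on all 12 arrays, in control and deprived eyes, after quantile normalization (black, ± SE) and 75th percentile scaling (green). Of the 4 miRNAs with the seed AAAGUGC, miR-106b-5p is positive while miR-20a-5p and miR-20b-5p are negative under both scalings drawn and miR-93-5p turns from -0.44 to 0.01 and from -0.64 to 0.21; without normalization all 4 are positive, and with the 75th percentile over all names miR-106b-5p and miR-25-3p are at -0.02 and -0.09 in the deprived eyes.

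The paralogous clusters and seed families can be set beside the 50.6% and 58.9% of all 443 miRNAs called in the control and the deprived eyes. For the miR-17/92 cluster 10 of 12 names are on the array and 8 were tested, of which 1 was called higher and 0 lower in control retina over control sclera (median 0.82) and 2 and 0 in the deprived eyes (0.70), while after 75th percentile scaling 5 were called higher and 0 lower in both. For the miR-106a to miR-363 cluster 7 of 12 names are on the array and 4 were tested, with 1 higher and 0 lower in the control eyes (0.96) and 2 and 1 in the deprived eyes (1.07), and after 75th percentile scaling 3 and 0 and then 2 and 0. Both lists hold miR-19b-3p and miR-92a-3p, so their counts and medians are not separate. The calls of these clusters in the control eyes were miR-20a-3p and miR-18b-5p, which no sclera array detected, so that they could pass only as higher in the retina and their fitted values depend on the floor, and the same holds for miR-18a-3p and miR-18b-5p among the calls in the deprived eyes.

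The list of other members of the seed family of miR-106b-5p and miR-93-5p had 2 of its 4 names tested (miR-6383, with the same seed, is neither in it nor on the array), with 0 called in the control eyes (median -0.65) and miR-20b-5p called lower in the deprived eyes (-0.97), and 0 in either after 75th percentile scaling. Those of miR-25-3p had 3 of 5 tested (medians 0.94 and 0.80, the second being the value of miR-32-5p, which depends on the floor). In the control eyes the 1 called was miR-32-5p, again undetected on every sclera array, and in the deprived eyes miR-92a-3p was called higher and miR-92b-3p lower, against miR-92a-3p alone in both eyes after 75th percentile scaling. The median over all 443 miRNAs tested was 0.30 in the control and 0.36 in the deprived eyes, and both these and the list medians take in miRNAs set at the floor. Over the miRNAs detected on all arrays the medians after quantile normalization were 0.87 and 0.46 for the 5 of the miR-17/92 cluster, 0.94 in both eyes for the 3 of the miR-106a to miR-363 cluster and, for all 246, -0.24 and -0.32. After 75th percentile scaling they were 1.07 in both eyes, 1 and 0.97, and 0.13 and 0.39, in the same order. Without normalization they were 2.11 and 2.26, 2.04 and 2.16, and 1.17 and 1.58. Of the 3 of the miR-106a to miR-363 cluster, miR-19b-3p and miR-92a-3p are also among the 5 of the miR-17/92 cluster. The other member, miR-20b-5p, was lower in the retina after both scalings and higher without normalization. The 2 names of the first seed list were both detected on all arrays, and of the second list only miR-92a-3p was. In the response of the retina, the response of the sclera and the difference between them, 0 members of these 4 lists were called. The largest fitted changes among them in the retina were those of miR-18b-5p (3.36 ± 1.32, SE, limma adjusted p = 0.15) and miR-18a-3p (2.35 ± 0.79, limma adjusted p = 0.13), each undetected on at least 1 array of the groups compared, where the floor enters. Signals of miR-18b-5p were 85.2, 13.9 and 0.1 in control retina and 148.4, 193.8 and 91.0 in myopic retina, and those of miR-18a-3p were 0.1 on all 3 control retina arrays and 12.7, 24.8 and 0.1 in myopic retina, where 0.1 stands for undetected.

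The 3 guide arms did not have the most similar profiles across the arrays. Likeness was measured as the root mean square difference of log2 levels, each miRNA centred on its own mean over the 12 arrays, among the 246 miRNAs detected on all arrays. Closest to miR-106b-5p were miR-26b-5p (0.11), miR-324-5p (0.12) and miR-362-3p (0.14), while miR-25-3p was at 0.22, miR-93-5p at 0.65 and the median miRNA at 0.83. Closest to miR-25-3p were miR-15b-5p (0.09), miR-425-5p (0.11) and miR-34a-5p (0.12), against a median of 0.78. Closest to miR-93-5p were miR-532-5p (0.13), miR-195-5p (0.14) and miR-1949 (0.14), and its family member miR-20a-5p was at 0.21, nearer than miR-25-3p (0.58) and miR-106b-5p (0.65), against a median of 0.71. The nearest names depend on the scaling, and after 75th percentile scaling the nearest was miR-192-5p for miR-106b-5p (0.08), miR-30a-3p for miR-25-3p (0.07) and miR-1949 for miR-93-5p (0.10), with miR-93-5p at 0.52 from miR-106b-5p.

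Marker miRNAs of cell types separated the tissues as labelled and those of retinal neurons were also detected in the sclera. All 6 retinal neuron and photoreceptor markers, led by miR-124-3p, were called higher in the retina in control and in deprived eyes and were detected on every array. Their summed quantile normalized signal was 185500, 185200 and 195100 in control retina, 185800, 196000 and 185500 in myopic retina, 14930, 15280 and 2676 in control sclera and 11360, 5946 and 12590 in myopic sclera. The lowest of these sums was on control sclera 3, the array that was also lowest in miR-106b-5p, and the part of the markers in the results for the cluster was not tested.

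Of the 6 markers of fibroblasts and other mesenchymal cells, 5 were on the array and all 5 were called lower in the retina in both comparisons. Their sums were 68.86, 150.3 and 420.1 in control retina, 64.5, 65.67 and 88.27 in myopic retina, 27390, 27640 and 27090 in control sclera and 29010, 28700 and 27710 in myopic sclera, with miR-199a-3p the most abundant in sclera and miR-214-3p undetected in retina. The 4 skeletal muscle markers, led in the sclera by miR-133b-3p, were all called lower in the retina (3 of 4 without normalization and with the tissues normalized separately, and in the deprived eyes also after 75th percentile scaling), with sums of 148.6, 277 and 400.7 in control retina, 188.4, 212.1 and 199.6 in myopic retina, 3561, 5454 and 4331 in control sclera and 6554, 5459 and 3329 in myopic sclera. Scleral samples thus carried muscle as well as connective tissue markers, and the control retina arrays differed among themselves in both lists, with control retina 3 highest.

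Several blood and vessel markers were lower in the retina as well. Both endothelial markers were called lower there (0 of 2 without normalization and with the tissues normalized separately), with sums of 1222, 1175 and 1112 in control retina, 1051, 1161 and 1256 in myopic retina, 3652, 4649 and 4461 in control sclera and 3224, 3648 and 3437 in myopic sclera, mostly from miR-126-3p. Of the 4 leukocyte markers 2 were called lower (with also 1 higher without normalization and with the tissues normalized separately, and in the deprived eyes after 75th percentile scaling), with sums of 52.78, 83.49 and 124.3 in control retina, 43.93, 45.53 and 57.46 in myopic retina, 748.5, 886.5 and 849 in control sclera and 863.5, 882 and 841 in myopic sclera, led in the sclera by miR-223-3p, and with miR-142-5p undetected in retina. The red blood cell list had 2 of 4 names on the array, with miR-451 the most abundant and 1 called lower (0 without normalization and with the tissues normalized separately; without normalization the median turned from -0.35 to 0.40 in control eyes and from -1.77 to 0.05 in deprived eyes, and with separate normalization to 0.84 in control eyes), and sums of 175, 227.3 and 282.9 in control retina, 219.9, 293.9 and 275.5 in myopic retina, 917.7, 870.5 and 899.6 in control sclera and 1054, 1161 and 961.7 in myopic sclera. Pigment cell markers were detected on all arrays of both tissues. The 2 pigment markers, led by miR-204-5p, had sums of 14790, 14790 and 15130 in control retina, 13550, 13370 and 14790 in myopic retina, 7344, 8366 and 13790 in control sclera and 5464, 5135 and 8073 in myopic sclera, with 1 called higher in the retina, 0 with the 75th percentile over all names, 2 without normalization and with the tissues normalized separately, and 2 in the deprived eyes after 75th percentile scaling. No marker of the 7 lists was called in the response of either tissue to deprivation or in the difference between them. List medians of the retinal response were -1.14 for mesenchymal cells, -0.84 for leukocytes, -0.71 for skeletal muscle and -0.54 for endothelium. They were -0.11 for red blood cells, -0.09 for pigment cells and 0.01 for retinal neurons and photoreceptors. The part of these values in the retinal response of the cluster was not tested.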

How the data were processed

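RNA of 12 pools was hybridized to 12 one-colour Agilent mouse miRNA arrays with 14635 spots, of which 13920 carry the 1937 probes of 696 miRNA names. The scanner files deposited by the authors hold intensity values, background subtracted and not normalized between arrays, with 0.1 for undetected names, and, per the file headers, other columns with detection and saturation flags of 0 or 1. The header names Feature Extraction 11.0.1.1. The deposited table holds log2 values that the authors made from total gene signals with a minimal signal of 0.5 and quantile normalization in Partek 6.6 (submitters' notes), for 437 miRNAs and 11 control features with a median of 5.74. The authors state that absent features and outliers were then removed, without the criterion. Here signals under 0.5 were set to 0.5, quantile normalized over 696 names and log2 transformed, and for the 437 miRNAs the median absolute difference from the deposited values was 0.12 (correlation across miRNAs and arrays 0.999).

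The 443 miRNAs detected on at least 1 array were fitted with limma 3.58.1 (R 4.3.3), 1 mean for each of 4 groups, with Benjamini-Hochberg adjustment over all 443, and were called where the adjusted p was under 0.05 and the groups differed 2-fold or more. The other 253 names were left out. The fit was tested on simulated data. The 5 comparisons share arrays: each group enters 2 of the first 4, and the difference between responses uses all 12. Ratios within arrays were compared by two-sided exact permutation tests (Python 3.11.15, scipy 1.17.1). Figures were drawn with matplotlib 3.10.9. Alternatives changed the scaling, floor, signal column, filter, model, the block by pool number and the arrays left out, and their effects are given in the closing section.

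The labels give a mouse identifier that was used as pool number. In the retina the authors state that each control sample corresponds to the myopic sample of the same number. Over the 246 miRNAs detected on all arrays, deviations from the group mean correlated between control and myopic arrays of the same number by 0.38, -0.46 and 0.59 in retina and by -0.14, -0.16 and 0.00 in sclera. So few correlations cannot show that the pairing is absent. The authors' methods mention no block, so the main fit ignores the pairing, which was used only as an alternative. Named miRNAs are the cluster, its paralogous clusters miR-17/92 and miR-106a to miR-363, the other members of its seed families, and the 3 nearest profiles of each guide arm. The marker lists cover retinal neurons and photoreceptors, pigment cells, mesenchymal cells, skeletal muscle, red blood cells, leukocytes and endothelium. Members and lists were chosen with earlier results of these data known.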

Additional observations from a re-analysis of the deposited data

How the results depend on the processing

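In the 9 results on deprivation (3 guide arms, 2 tissues and their difference), 258 alternatives gave 0 calls, since no change reached 2-fold where the adjusted p passed 0.05 (in the retina miR-93-5p with array weights, -0.47, and without control retina 1, -0.51, and miR-106b-5p with array weights, -0.22; in the difference between responses miR-93-5p with array weights, -0.34). Ratios within arrays were added after seeing the data and kept their direction in 17 of 17 alternatives each, which is no sign of stability for the 2 over miR-93-5p, chosen after their tissues were seen not to overlap, with ranges of 0.65 to 1.22 for miR-106b-5p to miR-93-5p, 0.51 to 1.13 for miR-25-3p to miR-93-5p (exact permutation p of both from 0.0022 to 0.031) and 0.01 to 0.25 for miR-106b-5p to miR-25-3p. The cause of the changes below was not tested, except that fewer miRNAs were tested with the filter on all 12 arrays, and that no normalization and quantile normalization inside each tissue do not bring the tissues to a common scale. Adding the block to the 75th percentile scaling was also chosen after seeing the data. Low signal limits the passenger arms, which were at most 4.8 where an array's lowest detected signal was 2.41 to 4.70.

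In myopic against control retina, miR-106b-5p turned to 0.00 after 75th percentile scaling, with processed spot signals and with that scaling and a block, and to 0.11 without normalization, where miR-106b-3p was 0.05, miR-93-5p 0.09 and miR-25-3p 0.03. The 1 call became 0 with a floor at the lowest detected signal, processed signals, normexp, the filter on all 12 arrays or only the groups compared, 2 with deposited values, 146 with array weights and 1 to 122 leaving out single arrays. In the sclera, miR-106b-5p turned to -0.02 with array weights and ranged from -0.06 to 0.28 leaving out single arrays, and the 0 calls became 1 with array weights and 0 to 1 leaving out single arrays.

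In control retina against control sclera, miR-106b-5p passed a fold of 2 after 75th percentile scaling (1.07, also with a block), without normalization (2.11), with quantile normalization inside each tissue (2.22) and with processed signals (1.1), and miR-25-3p without normalization (1.80) and within tissue (1.90). The direction of miR-93-5p turned to 0.01 after 75th percentile scaling (also with a block), 1.04 without normalization, 1.28 within tissue and 0.02 with processed signals. Calls were 82 with normexp and 128 with the filter on all 12 arrays, against 224.

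In myopic retina against myopic sclera, miR-106b-5p was -0.02 with the 75th percentile over all names, 2.15 without normalization and 1.90 within tissue, and miR-25-3p was -0.09, 2.07 and 1.90. The direction of miR-93-5p turned to 0.21 after 75th percentile scaling (also with a block), 1.40 without normalization, 1.11 within tissue and 0.23 with processed signals. Calls were 101 with normexp and 139 with the filter on all 12 arrays, against 261.

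In the difference between responses, miR-106b-5p turned to 0.04 without normalization, miR-93-5p to 0.20 after 75th percentile scaling (also with a block), 0.35 without normalization and 0.21 with processed signals, and miR-25-3p to 0.13 (also with a block), 0.28 and 0.12, to 0.00 within tissue, and to -0.10 to 0.08 leaving out single arrays. The 1 call became 0 with a floor at the lowest detected signal, processed signals, normexp, deposited values, the filter on all 12 arrays and the replicate block, 156 with array weights and 0 to 112 leaving out single arrays.

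Over all 6 retina against all 6 sclera arrays, miR-106b-5p, miR-25-3p and miR-93-5p differed by 0.67, 0.59 and -0.54 after quantile normalization. The first passed a fold of 2 with 75th percentile scaling (1.01), without normalization (2.13), within tissue (2.06) and with processed signals (1.04), and miR-25-3p without normalization (1.93) and within tissue (1.90). With the 75th percentile over all names these 2 were 0.25 and 0.06 (adjusted p = 0.23 and 0.7, the highest over the alternatives, with 1.7e-06 and 1.8e-08 the lowest). The direction of miR-93-5p turned to 0.11 after 75th percentile scaling over the miRNAs detected on all arrays, 1.22 without normalization, 1.20 within tissue and 0.12 with processed signals.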
